A study of Rattus norvegicus with 10 samples.

Results

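Voltage-gated sodium and calcium channels were examined in left hippocampi of TgF344-AD female rats, a model of Alzheimer's disease carrying human amyloid precursor protein and presenilin transgenes. The genes were taken by symbol from the count table: sodium channel genes named Scn followed by a number and a or b, the sodium channel beta genes, and all genes named Cacna, Cacnb1 to Cacnb4 or Cacng1 to Cacng8. The rule found 39 of the 17168 gene symbols in the table. The untreated group held 5 transgenic females on ordinary rodent chow, and the RG2833 group held 5 transgenic females fed chow with 750 mg of RG2833 per kg. RG2833 inhibits the histone deacetylases HDAC1 and HDAC3. Treatment began at 5 months of age and lasted 6 months, and both groups were killed at 11 months. Every animal carried the transgenes, so the comparison is of drug against no drug within the disease model, with no wild-type animals used here. A blue food dye told the chows apart, and the labels do not say which chow carried it.

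Voltage-gated sodium channels (Nav) start and carry the action potential. Each has a large pore-forming alpha subunit (such as Scn1a, Scn3a and Scn8a) and smaller beta subunits (such as Scn2b, Scn3b and Scn4b) that steer gating and placement at the axon initial segment. Voltage-gated calcium channels (Cav) turn that depolarisation into calcium entry, which drives transmitter release, dendritic excitability and transcription. Their alpha1 subunit (Cacna1) forms the pore, and the alpha2delta (Cacna2d) and beta (Cacnb) subunits bring it to the membrane. The gamma genes (Cacng) have a mixed name: Cacng1 and Cacng6 encode gamma subunits of calcium channels, whereas the proteins of Cacng2, Cacng3, Cacng4, Cacng5, Cacng7 and Cacng8 are known mainly as TARPs, auxiliary subunits of AMPA-type glutamate receptors.

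The 39 genes fell into 9 Nav alpha, 4 Nav beta, 10 Cav alpha1, 4 alpha2delta, 4 Cav beta and 8 gamma genes. The Nav alpha gene that the table lists under its older symbol Scn2a1 (Scn2a, a main sodium channel of excitatory neurons) falls outside the rule, and its values are given separately. Of the 39, 31 passed the filter on low counts and were tested among 11791 genes. Total counts ran from 8764266 to 11311673 per library, so 3 counts, the floor used here, correspond to 0.268 to 0.343 CPM (TMM-scaled counts, per library of 1000000). Levels in CPM are not scaled by gene length and are compared between animals only, never between genes.

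Several library measures moved with the groups. Ribosomal RNA loci took up 2.70 to 5.36% of counts in untreated and 1.13 to 1.96% in RG2833 animals. The summed level of 8 excitatory neuron markers was 4890 to 6758 CPM in untreated and 6883 to 7530 CPM in RG2833 animals, with 7 of the 8 higher on average, 1 called (Camk2a, higher) and none at 0. Of 8 general neuronal markers 6 were higher and 1 was called (Rbfox3, higher), with sums of 6088 to 8960 and 8468 to 10185 CPM that overlapped between the groups. Inhibitory neuron, astrocyte, oligodendrocyte, oligodendrocyte precursor, microglial and vascular marker sums overlapped between the groups, and 1 marker of these lists was called (the microglial gene Aif1, lower). Fold changes were negative for 6 of 6 vascular, 3 of 3 oligodendrocyte precursor, 6 of 7 microglial, 6 of 7 inhibitory neuron and 3 of 7 astrocyte markers, and positive for 7 of 7 oligodendrocyte markers. Choroid plexus markers summed to 2461 CPM in untreated replicate 1 and 4.67 to 46.4 CPM in the other animals. In bulk tissue fewer cells of a type and less RNA per cell cannot be told apart. The part of these measures in the results below was not tested beyond the covariate fits given with them.

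Of the 31 tested channel genes, 5 rose and 0 fell in RG2833 animals (edgeR quasi-likelihood test, adjusted p under 0.05), where 2.41% of all tested genes rose, 2.67% fell and 5.08% did either. The groups did not overlap in 4 of the 31, all higher, against 3.8% of all tested genes higher and 3.47% lower. The 5 were the gamma genes Cacng2, Cacng5 and Cacng7, the calcium channel beta gene Cacnb1 and the P/Q-type pore gene Cacna1a. None of the 10 tested sodium channel genes was called. At an unadjusted p under 0.05 there were 13 higher genes and 0 lower, against 11.8% and 12.7% of all tested genes. In DESeq2 and limma-voom 0 channel genes were called lower at an adjusted p under 0.05. The median log2 fold change of the 31 was 0.28, against -0.003 over all tested genes, and 27 of the 31 were positive, against 49.4% of all tested genes. When the ribosomal RNA share entered the fit 14 of the 31 were positive, and with the excitatory neuron score 22 were. None of the 5 calls held with either of these covariates or with 1 surrogate variable. Leaving out 1 animal gave 2 to 11 calls.

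**Figure D1:**
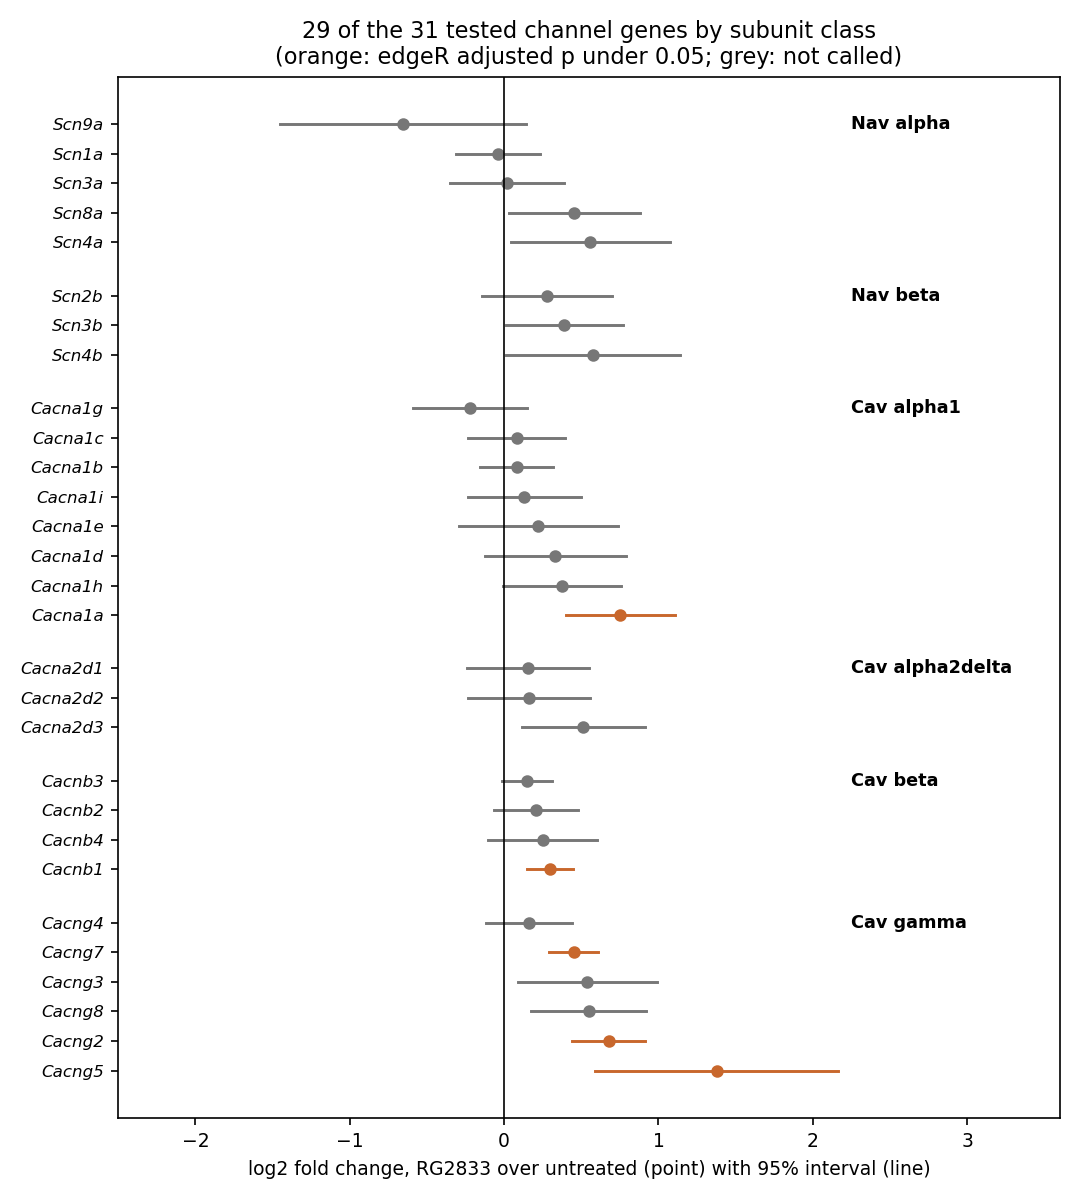
Log2 fold change of RG2833 over untreated (horizontal axis) for 29 of the 31 tested channel genes, grouped by subunit class, with points for estimates and lines for 95% intervals (edgeR, n = 5 per group). The 5 called genes are orange and lie right of 0; 3 of them are in the Cav gamma class, and the Nav alpha genes lie on both sides of 0.

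The gamma class held most of the calls, at 3 of its 6 tested genes, and all 6 had positive fold changes (median 0.54). The called genes are those of TARPs, and the proteins act chiefly on AMPA receptors. Cacng2 encodes stargazin, the TARP that carries AMPA receptors to the synapse. Its level was 37.8, 29.97, 29.9, 43.0 and 33.8 CPM in untreated replicates 1 to 5 and 64.0, 52.5, 50.7, 53.8 and 58.3 CPM in RG2833 replicates 1 to 5. Each RG2833 animal lay above each untreated animal. The group means were 34.9 ± 5.57 and 55.9 ± 5.33 CPM (SD, n = 5), a log2 change of 0.68 with SE 0.11 (adjusted p = 0.00932 in edgeR).

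Cacng7 encodes a type II TARP, a form that alters AMPA receptor gating. It was 65.0, 63.6, 69.0, 79.7 and 68.9 CPM in the untreated animals and 87.9, 90.5, 97.4, 99.9 and 97.3 CPM in the RG2833 animals. The groups did not overlap, and the untreated animal nearest to the RG2833 range was replicate 4. The rise was from 69.2 ± 6.30 to 94.6 ± 5.13 CPM (SD, n = 5), a log2 change of 0.45 with SE 0.07 (adjusted p = 0.0110 in edgeR). Cacng2 and Cacng7 were the channel genes that stayed called whichever of the 10 animals was left out.

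Cacng5, the other type II TARP gene, was scarce. It was 2.52, 0.300, 1.85, 2.23 and 1.69 CPM in untreated and 6.20, 3.57, 4.03, 3.10 and 5.44 CPM in RG2833 animals, and untreated replicate 2 held 3 counts. The groups did not overlap, and the log2 change of 1.38 with SE 0.36 (adjusted p = 0.0488 in edgeR) had the widest interval of the called channel genes, 0.59 to 2.16. The call held without untreated replicate 2 or 4 and was lost without any other single animal (edgeR adjusted p up to 0.123). It was also lost in limma-voom (adjusted p = 0.0556).

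The other tested gamma genes belong to the type I TARPs. Cacng8, whose protein is abundant at hippocampal synapses, was 99.99 to 219 CPM in untreated animals (median 139) and 184 to 246 CPM in RG2833 animals (median 204). Its log2 fold change of 0.55 ± 0.17 (SE) did not pass with all animals (edgeR adjusted p = 0.0791), and the high untreated value was that of replicate 4. Cacng3 was at 44.7 ± 16.01 and 65.0 ± 8.60 CPM (SD, n = 5), a log2 change of 0.54 with SE 0.21 (adjusted p = 0.131 in edgeR). Cacng4 was nearly level, at 14.9 ± 1.95 and 16.7 ± 2.59 CPM (SD, n = 5), with a 95% interval of the log2 fold change from -0.12 to 0.44. Cacng6 was below the filter, with 82 counts over all libraries, and Cacng1, the gamma subunit of skeletal muscle, had 0 counts in each library, which allows up to 0.343 CPM.

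**Figure D2:**
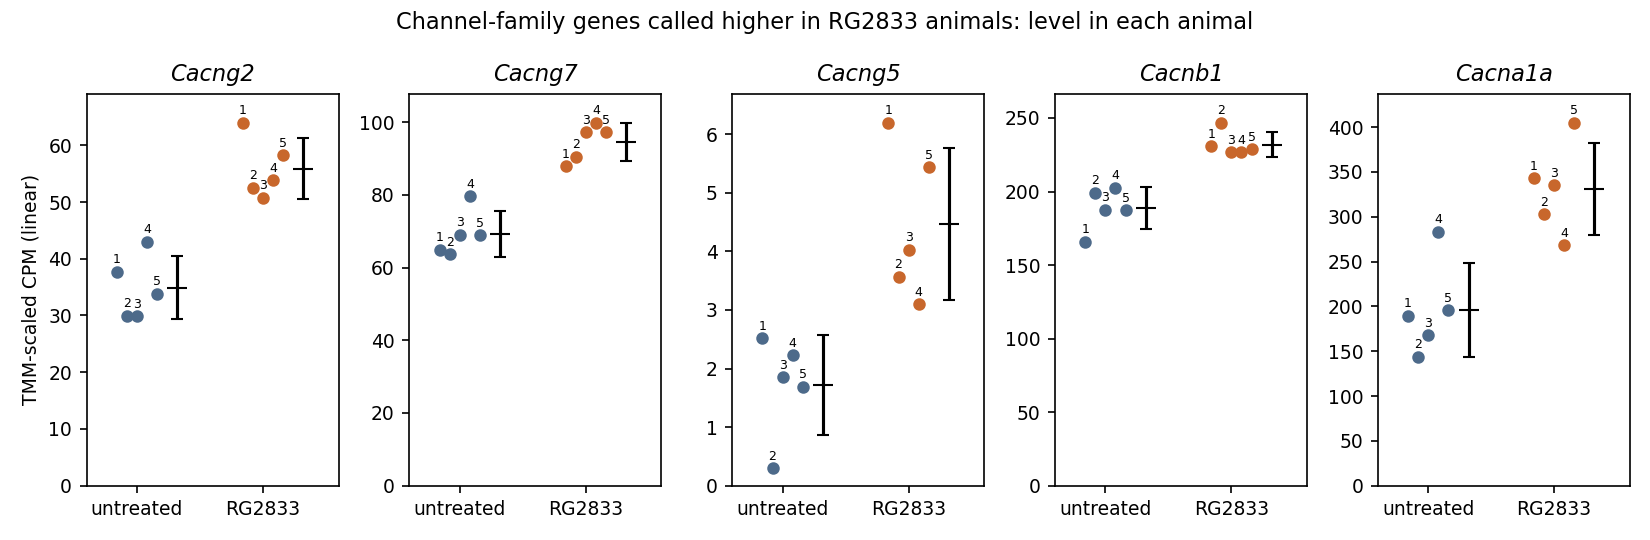
TMM-scaled CPM (vertical axes, linear and starting at 0) of the 5 called genes in each untreated (blue) and RG2833 (orange) animal, numbered by replicate, with black bars for mean ± SD (n = 5). The groups do not overlap for Cacng2, Cacng7, Cacng5 and Cacnb1; for Cacna1a, untreated replicate 4 at 283 CPM lies above RG2833 replicate 4 at 268 CPM.

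In the rat gene order of GRCr8, Cacng6, Cacng8 and Cacng7 stand next to each other on chromosome 1. Cacng1, Cacng4 and Cacng5 stand together on chromosome 10. In each cluster 1 gene was called and its nearest channel neighbour was not: Cacng7 but not Cacng8, and Cacng5 but not Cacng4. The difference between neighbours was not tested.

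Among the pore-forming calcium channel genes 1 of 8 tested was called. Cacna1a encodes the P/Q-type channel, which triggers transmitter release at most fast central synapses. It was 190, 144, 168, 283 and 195 CPM in untreated and 343, 303, 335, 268 and 405 CPM in RG2833 animals. Of the RG2833 animals 4 lay above all untreated animals, and RG2833 replicate 4 lay below untreated replicate 4. The rise was from 196 ± 52.7 to 331 ± 50.9 CPM (SD, n = 5), a log2 change of 0.75 with SE 0.16 (adjusted p = 0.0272 in edgeR). The call held without untreated replicate 4 or 5 or RG2833 replicate 4 and was lost without any other single animal (edgeR adjusted p up to 0.0824).

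Cacna1b, the N-type channel gene that shares the presynaptic role, was nearly level, at 120 ± 16.8 and 127 ± 16.1 CPM (SD, n = 5), a log2 change of 0.08 with SE 0.11 (adjusted p = 0.676 in edgeR). The ratio of Cacna1a to Cacna1b counts, which does not depend on library scaling, was 1.74, 1.41, 1.34, 2.45 and 1.35 in untreated replicates 1 to 5. In the RG2833 animals it was 2.48, 2.59, 2.72, 2.50 and 2.75. The ranges did not overlap, and untreated replicate 4 was next to the RG2833 range. This ratio was chosen after the values were seen and carries no test.

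The L-type genes Cacna1c and Cacna1d, whose channels couple depolarisation to transcription, had log2 fold changes of 0.08 and 0.33 and were not called. Neither was the R-type gene Cacna1e (0.22). Among the low-threshold T-type genes, Cacna1h had a log2 change of 0.37 with SE 0.18 (adjusted p = 0.214 in edgeR), Cacna1i of 0.13 and Cacna1g of -0.22, the only negative value of the 21 tested calcium channel family genes. The 95% intervals of these 6 genes and Cacna1b all included 0 and together spanned -0.59 to 0.79. Cacna1f and Cacna1s, known from retina and skeletal muscle, had 19 and 47 counts over all libraries and were not tested.

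Cacnb1, a cytoplasmic beta subunit that carries alpha1 subunits to the membrane, rose by little but evenly. It was 166, 199, 188, 203 and 187 CPM in untreated and 231, 247, 227, 227 and 229 CPM in RG2833 animals, with no overlap. The rise was from 189 ± 14.4 to 232 ± 8.53 CPM (SD, n = 5), a log2 change of 0.30 with SE 0.07 (adjusted p = 0.0345 in edgeR). The call held without untreated replicate 2, 4 or 5 and was lost without any other single animal (edgeR adjusted p up to 0.0891). Cacnb2, Cacnb3 and Cacnb4 had log2 fold changes of 0.20, 0.15 and 0.25 and were not called (edgeR adjusted p from 0.248 to 0.366).

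The alpha2delta subunits are extracellular proteins that set the number of presynaptic calcium channels, and those of Cacna2d1 and Cacna2d2 bind gabapentin. None of the 3 tested genes was called. Cacna2d3 was 121, 63.2, 114, 150 and 127 CPM in untreated and 171, 145, 149, 150 and 206 CPM in RG2833 animals, so the groups overlapped (log2 change 0.51, SE 0.18; adjusted p = 0.112 in edgeR). Cacna2d1 and Cacna2d2 both had log2 fold changes of 0.16, with SEs of 0.18, and Cacna2d4 had 12 counts in all.

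No sodium channel gene passed over all genes. Among the Nav alpha genes of the brain, Scn1a (mainly in inhibitory neurons) was at 84.6 ± 17.7 and 82.3 ± 4.91 CPM (SD, n = 5), with a 95% interval of the log2 fold change from -0.31 to 0.23. Scn3a, a form more abundant in the developing brain, had a log2 change of 0.02 with SE 0.17 (adjusted p = 0.957 in edgeR). Scn8a, the channel of mature axon initial segments and nodes, was 62.6 to 133 CPM in untreated and 109 to 185 CPM in RG2833 animals. Its log2 fold change of 0.45 ± 0.20 (SE) was not called (edgeR adjusted p = 0.175). Outside the rule, Scn2a1 was at 334 ± 48.5 and 345 ± 25.5 CPM (SD, n = 5), with an interval from -0.17 to 0.26.

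Nav alpha genes best known from other tissues had low counts. Scn4a (skeletal muscle) was at 2.91 ± 0.646 and 4.29 ± 1.22 CPM (SD, n = 5), a log2 change of 0.56 with SE 0.24 (adjusted p = 0.171 in edgeR), while summed skeletal muscle markers overlapped between the groups (22.1 to 32.5 and 19.4 to 29.0 CPM). Scn9a, a channel of sensory neurons, had a log2 change of -0.65 with SE 0.37 and was not called. Scn7a, Scn10a and Scn11a, with 110, 17 and 10 counts over all libraries, were below the filter. Of these, Scn7a was 0.915 to 2.59 CPM in untreated and 0.314 to 0.981 CPM in RG2833 animals. Its groups overlapped, and the difference was not tested.

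Of the Nav beta genes, which shape gating and join channels to the adhesion machinery of the axon, none was called. Scn3b was 427 to 953 CPM in untreated and 721 to 893 CPM in RG2833 animals (log2 change 0.39, SE 0.17; adjusted p = 0.194 in edgeR). Scn4b, the beta subunit linked to resurgent sodium current, was 11.3 to 36.2 and 29.8 to 42.6 CPM (log2 change 0.58, SE 0.26; adjusted p = 0.197 in edgeR). Scn2b was at 64.5 ± 21.6 and 78.2 ± 10.9 CPM (SD, n = 5), a log2 change of 0.28 (adjusted p = 0.4001 in edgeR).

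**Figure D3:**
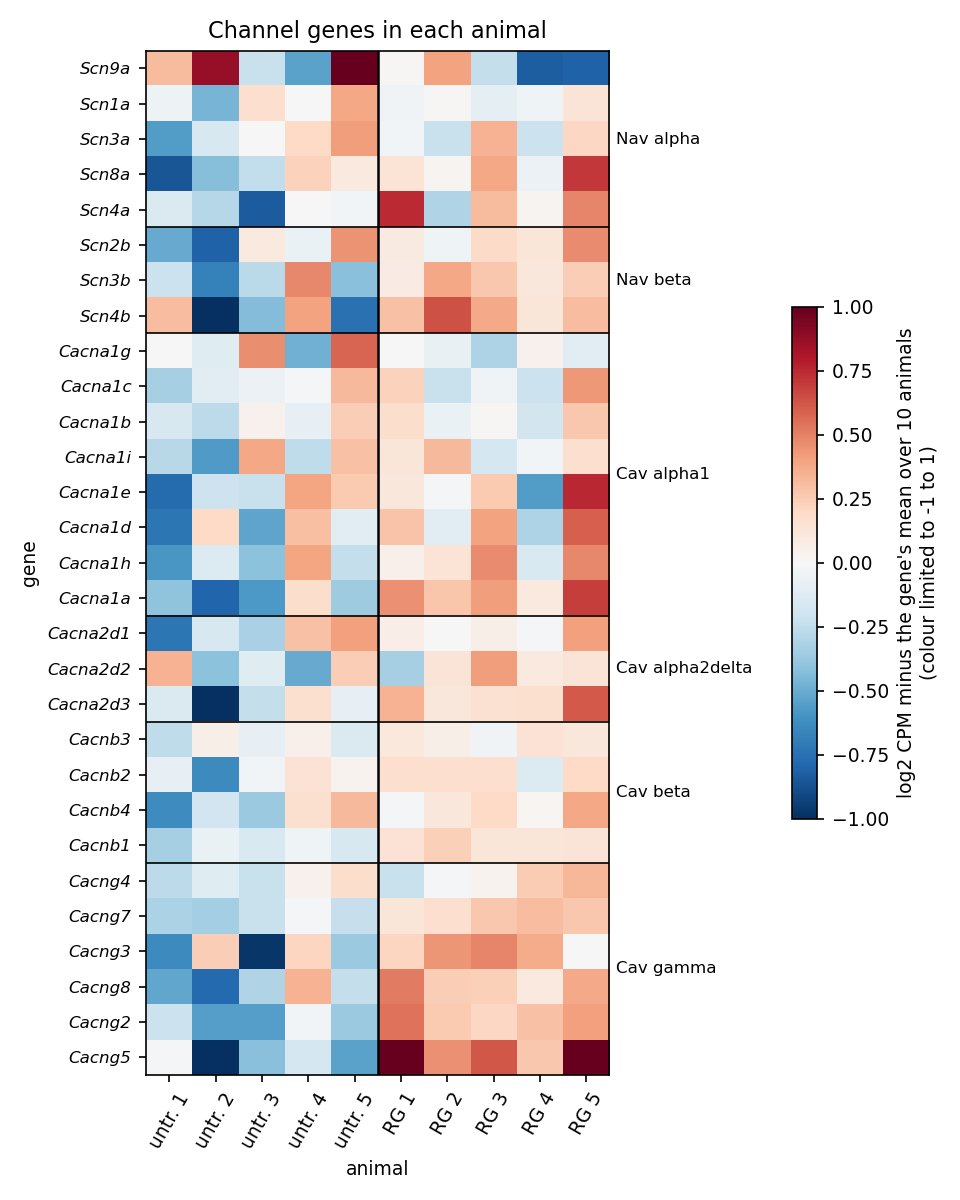
Log2 CPM of 29 of the 31 tested channel genes (rows, by subunit class) in each animal (columns), minus the gene's mean over the 10 animals; colour runs from -1 (blue) to 1 (red). Gamma genes are mostly blue in untreated replicates 1, 2, 3 and 5 and red in RG2833 animals, and untreated replicate 4 has the highest untreated level in 15 of all 31 tested genes.

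The untreated animals differed among themselves. Averaged over the 31 tested channel genes, log2 CPM minus the gene's mean over all animals was 0.03 in untreated replicate 4 and 0.04 in replicate 5, and -0.22, -0.39 and -0.20 in replicates 1, 2 and 3. Replicate 4 had the highest untreated level in 15 of the 31 genes and the lowest in 4, and replicate 5 the highest in 10 and the lowest in 0. Of the 13 genes with an unadjusted p under 0.05, replicate 4 was the highest in 11 and replicate 5 in 0. The level of replicate 4 lay inside the RG2833 range for 22 of the 31 genes, against 8 to 14 for the other untreated animals. Without replicate 4, 11 of the 31 channel genes were called higher, where 6.84% of all tested genes were. The added genes included Cacna1h, Cacna2d3, Cacng3, Cacng8 and Scn3b. Leaving out other animals one at a time gave 2 to 4 calls.

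**Figure D4:**
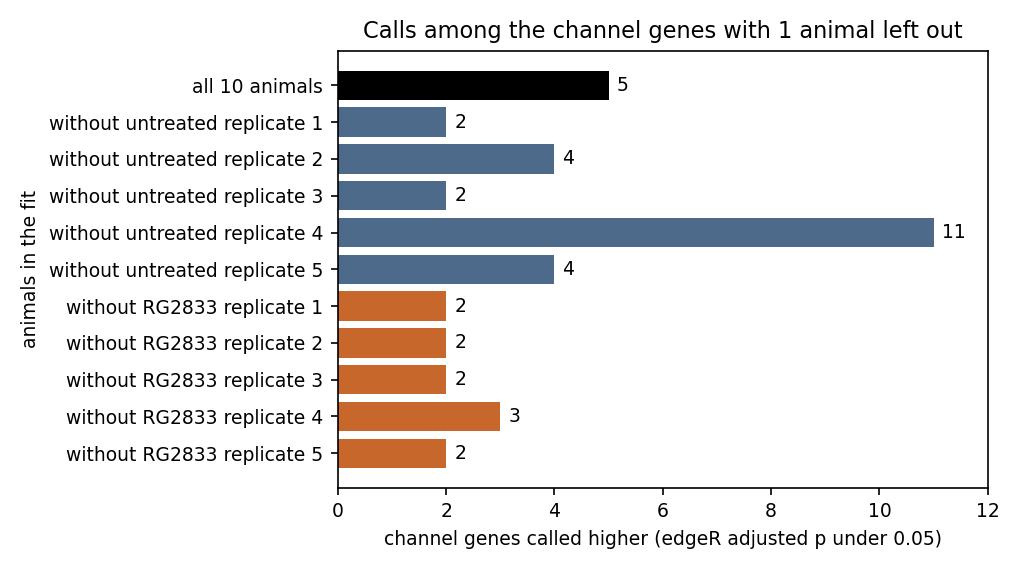
Number of channel genes called higher in RG2833 animals (horizontal axis, edgeR adjusted p under 0.05) with all 10 animals (black) and without each untreated (blue) or RG2833 (orange) animal. The count is 5 with all animals, 11 without untreated replicate 4 and 2 in 6 of the other 9 fits.

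All 5 calls were lost when the ribosomal RNA share, the excitatory neuron score or 1 surrogate variable entered the fit as a covariate, while their fold changes stayed positive. In that order of covariates the log2 fold change was 0.42 ± 0.20, 0.58 ± 0.15 and 0.53 ± 0.12 (SE) for Cacng2, and 0.24 ± 0.14, 0.29 ± 0.09 and 0.35 ± 0.09 for Cacng7. Cacng5 had 0.76 ± 0.69, 1.27 ± 0.52 and 1.21 ± 0.47. Cacnb1 had 0.39 ± 0.14, 0.21 ± 0.10 and 0.26 ± 0.09, so its value with the ribosomal RNA share was above the 0.30 without covariates. Cacna1a had 0.18 ± 0.26, 0.42 ± 0.18 and 0.45 ± 0.15, against 0.75 without covariates. The ribosomal RNA share did not overlap between the groups, so it cannot be told apart from the treatment. The summed excitatory neuron markers did not overlap either. The excitatory neuron score in the fit was instead the mean of the markers' log2 levels, which did overlap between the groups. Its part was not tested beyond this fit. With the choroid plexus score as a covariate Cacng2 and Cacng7 were called.

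Genes whose proteins bind, place or regulate these channels were read from a list of 29 symbols, of which 26 were in the table and 25 were tested. Of these 2 rose and 0 fell, where 2.41% of all tested genes rose and 2.67% fell. Positive fold changes were found for 13 of 25 (52%, median 0.02), near the 49.4% of all tested genes. Ank3 encodes ankyrin-G, the scaffold that holds sodium channels at the axon initial segment. It was 308, 280, 317, 371 and 352 CPM in untreated and 410, 444, 419, 403 and 456 CPM in RG2833 animals, without overlap (log2 change 0.39, SE 0.08; adjusted p = 0.0271 in edgeR). Calm3, a calmodulin gene, was 836, 674, 909, 937 and 802 CPM in untreated and 1060, 1117, 1042, 1116 and 1080 CPM in RG2833 animals. The groups did not overlap, with a log2 change of 0.38 with SE 0.09 (adjusted p = 0.0351 in edgeR). Both calls held without untreated replicate 2, 4 or 5 and were lost without any other single animal (edgeR adjusted p up to 0.089). They were also lost with the ribosomal RNA share, the excitatory neuron score, 1 surrogate variable or the choroid plexus score as a covariate, with fold changes still positive. In that order the log2 fold change was 0.19 ± 0.16, 0.20 ± 0.10, 0.30 ± 0.10 and 0.37 ± 0.09 (SE) for Ank3, and 0.26 ± 0.18, 0.23 ± 0.12, 0.33 ± 0.11 and 0.38 ± 0.10 for Calm3.

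Nfasc, an adhesion molecule of the axon initial segment, had a log2 change of 0.33 with SE 0.10 (adjusted p = 0.0786 in edgeR). Rem2, a small GTPase that inhibits calcium channels, was at 21.8 ± 11.6 and 40.7 ± 5.79 CPM (SD, n = 5), a log2 change of 0.90 (adjusted p = 0.0922 in edgeR). Rimbp2, which ties calcium channels to the release site, had a log2 change of 0.64 with SE 0.22 (adjusted p = 0.1002 in edgeR). Dpysl2 (CRMP2) had the 1 negative value among the 6 regulators with the smallest p-values (-0.23 ± 0.08, SE; edgeR adjusted p = 0.113).

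The bases before the annotated gene start are shown for the called genes that the RefSeq promoter table holds, and for Scn8a as the sodium channel gene with the most matches to the EGR motif. The table (GRCr8) held 26 of the 39 genes. Each run is the 250 bases upstream of the gene start, 5′ to 3′ on the gene's strand, and capitals mark matches to a searched motif. The windows are Cacna1a at chr19:40650469-40650718 (- strand), Cacng2 at chr7:111577758-111578007 (- strand), Cacng5 at chr10:93336668-93336917 (- strand) and Scn8a at chr7:133860977-133861226 (+ strand). Cacng7 and Cacnb1 are not shown.
Cacna1a: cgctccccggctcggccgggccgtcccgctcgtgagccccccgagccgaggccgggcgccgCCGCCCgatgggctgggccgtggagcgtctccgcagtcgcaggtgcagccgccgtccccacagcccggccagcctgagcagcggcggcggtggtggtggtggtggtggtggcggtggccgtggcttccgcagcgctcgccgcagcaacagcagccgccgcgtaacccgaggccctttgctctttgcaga
Cacng2: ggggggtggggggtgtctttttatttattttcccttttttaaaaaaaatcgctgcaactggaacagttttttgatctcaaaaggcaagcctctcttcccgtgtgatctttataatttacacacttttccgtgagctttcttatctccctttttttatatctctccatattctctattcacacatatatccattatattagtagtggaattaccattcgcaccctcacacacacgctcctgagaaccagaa
Cacng5: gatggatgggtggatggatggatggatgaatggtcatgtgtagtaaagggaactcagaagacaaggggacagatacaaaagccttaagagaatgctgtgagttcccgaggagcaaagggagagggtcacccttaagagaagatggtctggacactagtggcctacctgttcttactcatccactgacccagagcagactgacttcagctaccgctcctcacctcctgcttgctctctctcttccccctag
Scn8a: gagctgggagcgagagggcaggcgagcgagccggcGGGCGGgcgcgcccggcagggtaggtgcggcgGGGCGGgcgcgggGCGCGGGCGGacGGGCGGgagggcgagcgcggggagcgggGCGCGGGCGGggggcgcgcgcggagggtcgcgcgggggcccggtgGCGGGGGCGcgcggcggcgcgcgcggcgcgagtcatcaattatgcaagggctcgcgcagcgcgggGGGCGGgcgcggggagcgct

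The motifs searched on both strands were the GC box GGGCGG, the EGR site GCGNGGGCG, the cyclic AMP response element TGACGTCA, its half-site TGACG and the core of the RE1 element; the EGR site can overlap a GC box, and the half-site lies within the full element. The called genes did not share a composition: GC content was 76.8% for Cacna1a, 38.4% for Cacng2 and 51.2% for Cacng5, where the median of all promoters was 51.2% and that of the 26 channel promoters 63.0%. Cacna1a held 1 GC box, and Cacng2 and Cacng5 held none of the motifs. The Cacng5 run ends in a pyrimidine-rich stretch and AG, the letters of a splice acceptor, and no start site was measured in these data. The EGR site was present in 7 of the 26 channel promoters, against 4.29% of the 33469 promoters in the table, and the GC box in 13 of 26, against 30.5%. Both motifs are made almost wholly of G and C, and the channel promoters were richer in these letters (median 63.0% against 51.2%). Whether the motif shares differ beyond composition was not tested. Scn8a held 3 EGR sites. The full response element was in 0 of 26 (1.59% of all), the half-site in 4 of 26 (18.2% of all), and the RE1 core in 0 of 26 (0.00598% of all). These matches are letters in a window and show no binding.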

How the data were processed

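RNA of 10 left hippocampi was sequenced from stranded mRNA libraries, per the labels' protocols. The authors deposited expected counts from RSEM for each gene symbol, not normalized, per the name of their table. The submitters' processing notes name bcl2fastq 2.17, Bowtie2 2.1.0, RSEM 1.2.15, edgeR and the build rn6; the annotation is not given in the sources used here. A second deposited table of the same libraries, scaled by TMM, was not used. RSEM divides reads shared by similar genes, so the counts of paralogs such as Scn1a, Scn2a1, Scn3a and Scn9a are uncertain.

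Columns were assigned by sample title. Expected counts were rounded. Genes with low counts were removed with filterByExpr by group, and edgeR 4.0.16 (R 4.3.3) tested RG2833 against untreated animals with TMM scaling and the quasi-likelihood test, without covariates, at a Benjamini-Hochberg adjusted p under 0.05 over all tested genes. A standard error is the log2 fold change over the square root of F, and 95% intervals use the test's degrees of freedom. Log2 CPM used a prior count of 2. Floors cover counting error only. The fit was checked on simulated counts.

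The channel genes and lists were chosen with earlier results of these data known. Any channel gene could be named; genes called or without overlap have every animal's value; of the regulators, called genes and the 6 with the smallest p. Alternatives were DESeq2 1.42.0, limma-voom (limma 3.58.1), sva 3.50.0, other scalings, filters, covariates, a gene span correction, a replicate block and leaving out each animal. The excitatory neuron covariate was added after seeing the data. The labels do not say that each sample is a separate rat beyond its title, so p-values measure the spread between these samples.

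Each library was counted once. Libraries of a group differed by more than sampling noise (chi-square per degree of freedom from 4.60 to 36.3). That spread does not show that they come from separate animals. Gene order and spans came from the RefSeq table of GRCr8, a build other than rn6, and no position of a gene is given from it. Promoter windows and their coordinates came from the RefSeq promoter table of GRCr8. Values of some genes are not reported here, although counts over the channel genes include them.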

Additional observations from a re-analysis of the deposited data

Results flagged for a closer look

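Values far from the rest of their group were sought by the ratio of the gap to the nearest value over the group's range, with Dixon's 95% limit of 0.71 for 5 animals. Among 94 groups of 5 values 4 passed, where chance gives about 1 in 20, or 4.7.

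Cacna2d1 was 74.1 CPM in RG2833 replicate 5 and 55.0 to 58.4 CPM in the other RG2833 animals. Cacnb1 was 247 CPM in RG2833 replicate 2 and 227 to 231 CPM in the others, and the lowest of these was still above each untreated animal. Cacnb2 was 79.4 CPM in RG2833 replicate 4 and 98.1 to 100.3 CPM in the others. The choroid plexus markers summed to 2461 CPM in untreated replicate 1 and 4.82 to 22.1 CPM in the other untreated animals.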

How the results depend on the processing

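The 5 channel calls became 5 under DESeq2 size factors, library totals and removal of the gene span trend, 4 without a filter, with a mean count of at least 50 and in limma-voom, and 6 in DESeq2's Wald test, which added Cacng8. They became 2 with the replicate block and with the choroid plexus covariate (Cacng2 and Cacng7 in both), and 0 with the ribosomal RNA share, 1 surrogate variable or the excitatory neuron score, where the 5 fold changes stayed positive at 0.18 (Cacna1a) to 0.76 (Cacng5), 0.26 (Cacnb1) to 1.21 (Cacng5) and 0.21 (Cacnb1) to 1.27 (Cacng5); leaving out 1 animal gave 2 to 11. The count of channel genes called lower was 0 under every alternative run. The 2 regulators became 6 in the Wald test and 0 with the replicate block, the ribosomal RNA share, the surrogate variable, the choroid plexus or the excitatory neuron covariate, and 0 to 7 with 1 animal left out. Over all genes, 599 calls became 1295 in the Wald test, 180 with the replicate block, 2 with the ribosomal RNA share, 5 with 1 surrogate variable, 242 with choroid plexus markers, 5 with the excitatory neuron covariate, and 98 to 1556 with 1 animal left out. The counts without untreated replicate 4 (1556) and 5 (902) were above that with all animals. The cause was not tested. The median log2 fold change of the tested channel genes was 0.047 with the excitatory neuron covariate and -0.014 with the ribosomal RNA share, and between 0.19 and 0.33 under the others. Positive fold changes fell from 27 of 31 channel genes to 14 with the ribosomal RNA share and 22 with the excitatory neuron covariate. Among the genes with a fold change recomputed one by one, those that turned negative with the ribosomal RNA share were Cacna2d3 (-0.093), Scn3b (-0.11), Scn4b (-0.14), Scn8a (-0.014), Nfasc (-0.039) and Rem2 (-0.12), and the one that turned negative with the excitatory neuron covariate was Scn3b (-0.083); none of these genes was called with all animals. Both groups carry replicate numbers 1 to 5, but correlations of same-numbered animals' deviations ran from -0.319 to 0.151, and 1 of 5 untreated animals correlated best with its own number, so the numbers share only a name. At this depth, a level under about 0.3 CPM in 1 library cannot be told from 0.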

Other observations

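The channel genes, like most tested genes, varied more between untreated than between RG2833 animals. The coefficient of variation (SD over mean of CPM) was larger in the untreated group for 26 of the 31 tested channel genes (83.9%), against 75.5% of all tested genes. Its median was 27.8% in untreated and 13.4% in RG2833 animals for the channel genes, and 14.96% and 10.02% over all tested genes. No test was made of this difference.

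The channel genes are long. Their median span, from gene start to end in GRCr8, was 111 kb, against 24.3 kb over the 11582 tested genes with a span (98.2% of those tested). With genes cut by span into 5 equal bins, the median log2 fold change was 0.06 in the longest bin and -0.06 in the shortest. The 18 channel genes in the longest bin had a median of 0.18. Channel genes of shorter bins had larger medians, 0.37 for the 5 in the next bin and 0.42 and 0.38 for the 4 in each of the 2 bins after it, and the shortest bin held none. With the span trend removed, the same 5 channel genes were called.

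The ratio of Cacng2 to Cacng4 counts was 1.92 to 2.89 in untreated and 2.87 to 4.79 in RG2833 animals, and that of Scn8a to Scn1a 0.785 to 1.62 and 1.36 to 2.05. Both ratios overlapped between the groups and were chosen after the values were seen.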
